A study of Rattus norvegicus with 20 samples.

Results

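The hippocampus of 5 light-treated jaundiced Gunn rat pups was compared with that of 5 untreated pups without jaundice, which asks how far the transcriptome of a treated jaundiced pup lies from that of a normal one. These 10 libraries were the 2 groups of the comparison among 20 libraries in 4 groups of 5. The light-treated jj pups were homozygous for the Gunn allele and received LED light from postnatal day 4, in bouts of 3 h that added up to 12 h. The untreated Nj pups were heterozygous, so they carried the Gunn allele as well, and they received no light. All pups were of the Gunn strain, all were killed at day 6, and RNA was taken from 1 hippocampal lobe per rat. Genotype and light differ together between the 2 groups and cannot be told apart in their contrast. The labels name no litter, so litter is not part of any fit. The p-values set the difference between groups against the spread between pups within groups. A source that follows the groups enters the difference and cannot be told apart from it. A further pair of groups, light-treated Nj and untreated jj, enters the edgeR fit of all 20 libraries and so its estimated spread and p-values. With the 10 libraries alone 596 genes passed, of which 456 were among the 543 called with all 20. This pair is otherwise used below to set values side by side.

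Homozygous Gunn rats lack a working form of the liver enzyme that makes bilirubin water-soluble. Such pups accumulate the pigment, which can enter and damage the brain. Blue light converts bilirubin in the skin to forms that can be excreted without that enzyme. The rat hippocampus in the first postnatal week is still being built: granule neurons are born and migrate, axons find their targets, synapses mature, and astrocytes and microglia take on their adult form.

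Sequencing gave 19.3 to 25.7 M counts per library (M, mega) in light-treated jj pups (mean 21.2 ± 2.6, SD, n = 5) and 19.1 to 27.1 M in untreated Nj pups (mean 23.4 ± 3.3, SD, n = 5). Of 32883 genes listed, 15272 passed the filter on low counts. Levels are given as CPM, counts per M of the normalised library size. Ttr, a transport protein gene that the choroid plexus beside the hippocampus expresses very strongly, stood at 59.1, 7667, 247, 5390 and 6558 CPM in light-treated jj libraries 1 to 5, against 762, 57.3, 4111, 419 and 3.57 CPM in untreated Nj libraries 1 to 5. It exceeded 1000 CPM in 3 light-treated jj libraries and in 1 untreated Nj library, called Ttr-rich here, and results are given with and without these libraries where that matters. The choroid plexus list summed to 123 to 8949 CPM (median 6242) in light-treated jj and to 58.8 to 4874 CPM (median 555) in untreated Nj libraries. All 17 of its measured genes were higher by value, by a median of 1.46 on the log2 scale, and 0 passed the test, with a lowest edgeR adjusted p of 0.491. Otx2, a defining choroid plexus factor, had 0 counts in all 10 libraries. The sample titles carry a prefix that is J18 for every pup of both light-treated groups, J17 for untreated jj pups and J13, J14 or J15 for untreated Nj pups. Its meaning is not stated, and here prefix and group cannot be told apart. Markers of the labelled tissue were present: the dentate gyrus factor Prox1 averaged 104 ± 12.6 CPM in light-treated jj and 126 ± 6.33 CPM in untreated Nj pups (SD, n = 5 each), and the CA1 marker Wfs1 averaged 36.4 ± 7.33 CPM in light-treated jj and 25.7 ± 3.72 CPM in untreated Nj pups.

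Light-treated jj pups differed from untreated Nj pups in many genes by small amounts. In edgeR's quasi-likelihood test, 543 of 15272 genes (3.56%) passed a Benjamini-Hochberg adjusted p of 0.05. Of these, 214 genes were higher (1.4% of those tested) and 329 lower (2.15%) in light-treated jj pups. The median absolute log2 fold change of the called genes, light-treated jj over untreated Nj, was 0.26, with a median standard error of 0.058. Of the called genes 38 changed by more than 1.5-fold, 34 of them higher and 4 lower. Only 12 called genes passed 2-fold, and 10 of these had an average log2 CPM under 1. The CPM ranges of the groups did not overlap for 821 genes (5.38%), among them 390 of the called ones. Across all genes tested the median log2 fold change was 0.0044, with 51.4% of genes above 0. The falls beyond 1.5-fold were those of Gpc2, Emilin3, Cd52 and LOC108352650. Chi3l1, a secreted chitinase-like protein, was named after its values were seen, as 1 of the 2 genes past 2-fold whose average log2 CPM was 1 or more. Its log2 fold change was 1.13 (SE 0.28, edgeR adjusted p = 0.0322), and the CPM ranges of the groups overlapped for it.

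**Figure D1:**
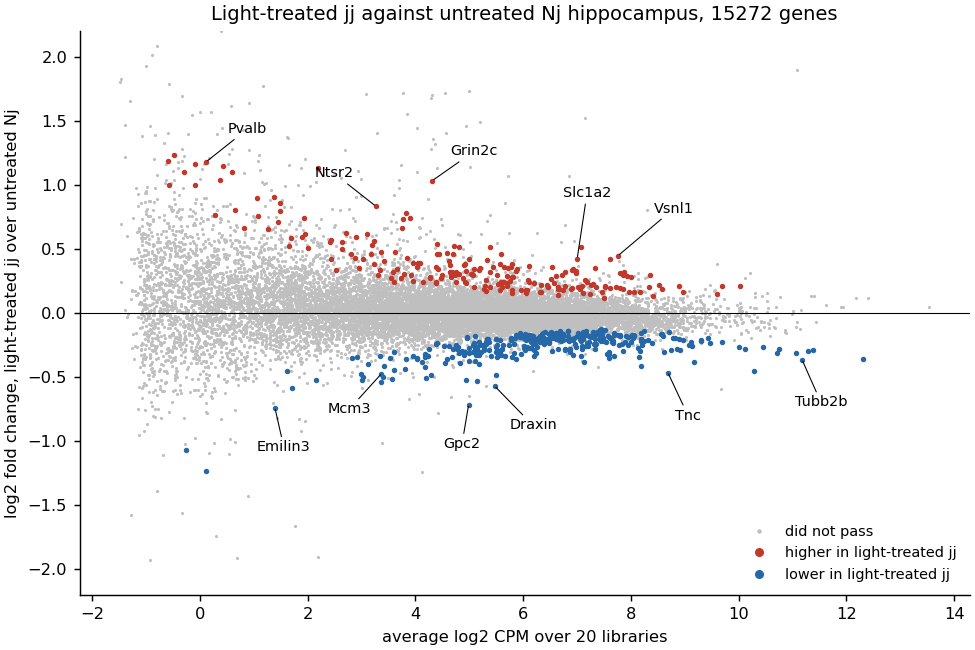
Each point is 1 of 15272 genes, with the average log2 CPM over 20 libraries on the horizontal axis and the log2 fold change of light-treated jj over untreated Nj pups on the vertical axis. Red points are the 214 genes that passed higher and blue points the 329 that passed lower in light-treated jj pups. The median absolute log2 fold change of the coloured points is 0.26, and 13 genes beyond the plotted range, of which 0 passed, are not drawn.

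As a single value over all genes, the distance between the 2 group means of log2 CPM was 27.0. An exact one-sided permutation test over the 252 ways to relabel the libraries gave p = 0.1111, and 0.3453 after adjustment over the 6 pairs of groups. Pairs of libraries from different groups lay 52.4 apart on average, pairs within light-treated jj 52.8 and pairs within untreated Nj 48.1. So on average 2 pups of different groups lay no farther apart than 2 light-treated jj pups. The corresponding distances of light-treated jj from light-treated Nj and from untreated jj pups were 23.4 and 27.3 (exact permutation p = 0.3413 and 0.2302).

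Of 24 measured genes of newborn and migrating neurons, 10 fell, 0 rose and 14 did not pass in light-treated jj pups, beside 2.15% and 1.4% of all genes, and the median log2 fold change was -0.24. In bulk tissue, fewer cells of a type and less RNA per cell cannot be told apart. Gpc2, a glypican on growing axons, stood at 28.3, 23.6, 24.5, 26.0 and 20.4 CPM in light-treated jj pups, against 33.6, 31.2, 43.8, 50.8 and 42.9 CPM in untreated Nj pups. Every light-treated jj pup was below every untreated Nj pup. The log2 fold change was -0.72 (SE 0.11, edgeR adjusted p = 0.00228). Draxin, a secreted protein that repels growing axons, had 42.8, 36.5, 36.1, 34 and 31.9 CPM in light-treated jj, against 55.5, 45.0, 56.4, 52.1 and 60.6 CPM in untreated Nj pups. Its ranges did not overlap either, and its log2 fold change was -0.57 (SE 0.08, edgeR adjusted p = 0.00188). Tubb2b, a tubulin of migrating neurons, averaged 2071 ± 101 CPM in light-treated jj and 2665 ± 153 CPM in untreated Nj pups (SD, n = 5 each), log2 fold change -0.36 (edgeR adjusted p = 0.00228). Its coding sequence closely resembles that of Tubb2a, and how shared reads were counted is not given in the sources used here. Crmp1, which relays semaphorin signals, averaged 1568 ± 72.5 CPM in light-treated jj and 1909 ± 67.5 CPM in untreated Nj pups, a log2 fold change of -0.28 (edgeR adjusted p = 0.00278). Dcx, the microtubule protein used to mark immature neurons, fell by 0.45 on the log2 scale (edgeR adjusted p = 0.0292) and Tubb3, the neuronal tubulin, by 0.31 (0.00887). The transcription factor genes Nhlh1, Nhlh2 and Bhlhe22 fell by 0.41, 0.39 and 0.24 (edgeR adjusted p = 0.0421, 0.0491 and 0.0421), and Dpysl3, a relative of Crmp1, by 0.27 (0.0115). Sox11 (-0.24) and Neurod1 (-0.29), both factors of neuronal differentiation, did not pass (edgeR adjusted p = 0.165 and 0.159). The median of the list was -0.18 without the Ttr-rich libraries.

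**Figure D2:**
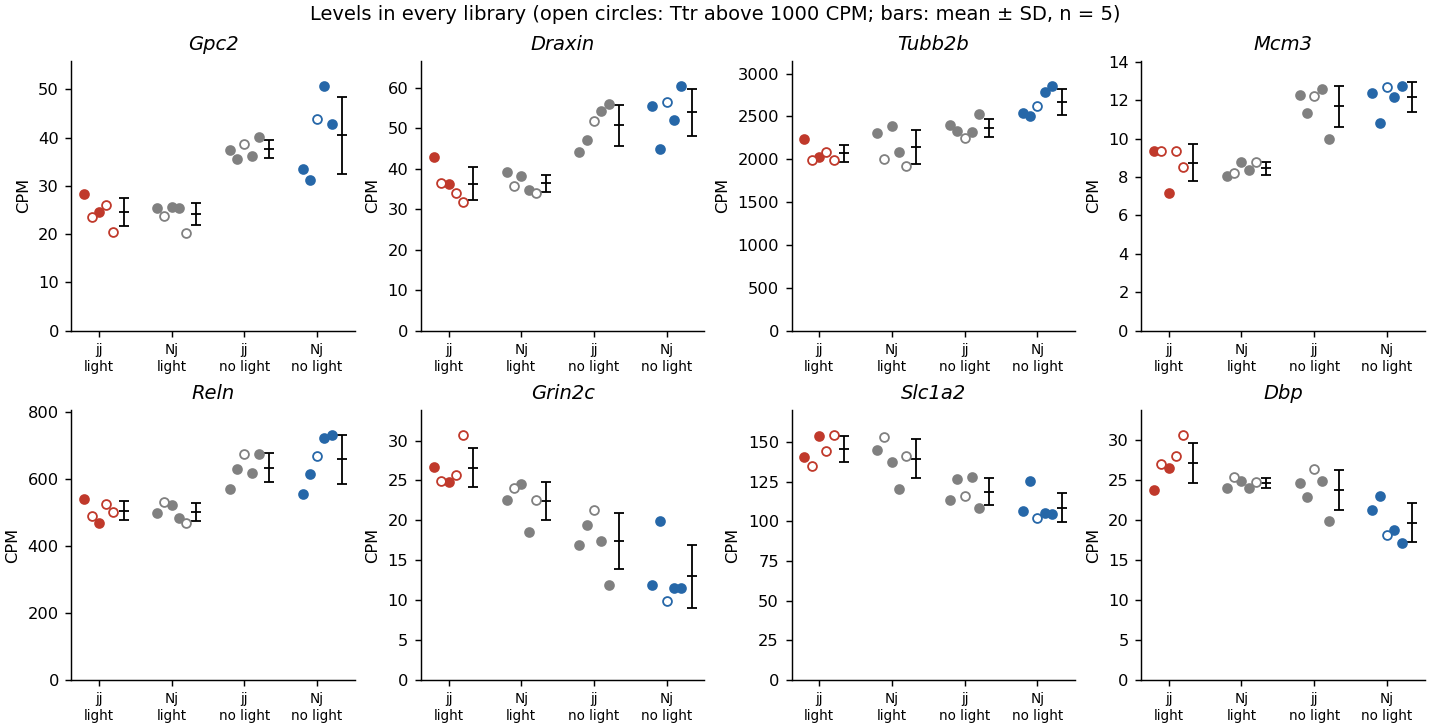
Each panel shows 1 gene in CPM in every library of the 4 groups, with light-treated jj in red, untreated Nj in blue and the other groups in grey. Open circles are libraries above 1000 CPM of Ttr, and the bars beside the points are mean ± SD (n = 5). In each of the 8 panels the light-treated jj pups lie wholly below (Gpc2, Draxin, Tubb2b, Mcm3, Reln) or wholly above (Grin2c, Slc1a2, Dbp) the untreated Nj pups.

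Of 42 measured axon guidance genes 7 were lower and 1 higher, beside 2.15% and 1.4% of all genes, and 34 did not pass. The median log2 fold change was -0.12, and -0.08 without the Ttr-rich libraries. Among ligands, Draxin is described above, and Slit2, the ligand of Robo receptors, and Efnb1, an ephrin, fell by 0.22 and 0.33 (edgeR adjusted p = 0.0159 and 0.0261). Ntn1, the gene of netrin 1, was the member that rose, at 6.25 ± 1.27 CPM in light-treated jj and 4.24 ± 0.659 CPM in untreated Nj pups (log2 fold change 0.56, edgeR adjusted p = 0.0374). Among receptors, Nrp2, which binds class 3 semaphorins, had 288, 255, 225, 253 and 227 CPM in light-treated jj, against 323, 309, 292, 338 and 317 CPM in untreated Nj pups. The groups did not overlap, with a log2 fold change of -0.34 (SE 0.07, edgeR adjusted p = 0.00626). Robo1, the Slit receptor, fell by 0.24 (edgeR adjusted p = 0.00771) and Plxna2, a semaphorin coreceptor, also by 0.24 (0.0125). Dcc, the netrin receptor, fell by 0.31 (edgeR adjusted p = 0.0313).

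Of 30 measured genes of the extracellular matrix, its proteoglycans and the giant cadherins 8 were lower and 1 higher, beside 2.15% and 1.4% of all genes, with a median of -0.15. Tnc, tenascin C of immature brain matrix, stood at 422, 355, 324, 313 and 330 CPM in light-treated jj pups, against 441, 452, 482, 528 and 507 CPM in untreated Nj pups. The 2 sets of pups did not overlap, and the log2 fold change was -0.47 (SE 0.07, edgeR adjusted p = 0.00188). Reln, the secreted protein that positions migrating neurons, had 540, 489, 469, 525 and 500 CPM in light-treated jj, against 556, 614, 668, 721 and 732 CPM in untreated Nj pups. Its highest light-treated jj pup lay just under the lowest untreated Nj pup (log2 fold change -0.38, SE 0.07, edgeR adjusted p = 0.00282). Adamts7, a secreted metalloprotease, averaged 14.7 ± 1.53 CPM in light-treated jj and 20.9 ± 2.07 CPM in untreated Nj pups, log2 fold change -0.50 (edgeR adjusted p = 0.00278). The large proteoglycan genes Vcan and Agrn fell by 0.31 and 0.21 (edgeR adjusted p = 0.0209 and 0.0348). Fat4 and Dchs1, giant cadherins that bind each other, fell by 0.32 and 0.28 (edgeR adjusted p = 0.0212 and 0.0346). Hapln4, a link protein of the nets around mature neurons, was the member that rose, at 17.5 ± 2.4 CPM in light-treated jj and 10.2 ± 2.73 CPM in untreated Nj pups (log2 fold change 0.78, edgeR adjusted p = 0.00546). The median of the list was -0.19 without the Ttr-rich libraries.

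Some genes of cell division fell. Over all genes 2.15% were lower and 1.4% higher. Of 34 measured genes of DNA replication 4 were lower and 0 higher (median log2 fold change -0.15), and of 25 mitosis genes 3 were lower and 0 higher (median -0.14). Mcm3, a subunit of the ring-shaped helicase that opens DNA for copying, had 9.36, 9.34, 7.14, 9.35 and 8.54 CPM in light-treated jj pups, against 12.4, 10.8, 12.7, 12.2 and 12.8 CPM in untreated Nj pups. No light-treated jj pup reached the untreated Nj range, and the log2 fold change was -0.47 (SE 0.08, edgeR adjusted p = 0.00357). Mcm6 and Mcm4, further subunits, fell by 0.24 and 0.29 (edgeR adjusted p = 0.0273 and 0.0495), and Uhrf1, which keeps DNA methylation through replication, by 0.35 (0.046). With 1 library left out, these 3 passed in 5, 1 and 1 of 10 fits and Mcm3 in all 10. Mki67, the standard marker of dividing cells, averaged 29.9 ± 2.24 CPM in light-treated jj and 38.9 ± 4.11 CPM in untreated Nj pups (log2 fold change -0.38, edgeR adjusted p = 0.00889). The spindle factor Tpx2 fell by 0.34 and the topoisomerase Top2a by 0.33 (edgeR adjusted p = 0.014 and 0.0194). Of 21 genes of neural progenitors 1 was called, or 4.76%, near the 3.56% of all genes. The list median was -0.05, and -0.135 without the Ttr-rich libraries. The called gene was Nes, an intermediate filament of stem cells, which fell. It averaged 6.89 ± 0.361 CPM in light-treated jj and 9.62 ± 1.42 CPM in untreated Nj pups (log2 fold change -0.48, edgeR adjusted p = 0.00992). Pcna, the sliding clamp of replication, had a log2 fold change of -0.06 and did not pass (edgeR adjusted p = 0.701).

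Replication genes are classical targets of E2F factors, so the promoters of the called members are described. The letters TTTCCCGC, TTTGGCGC, TTTCGCGC and TTTGCCGC were searched on both strands in the 300 bases from 250 before to 50 after each start, in RefSeq promoters of build GRCr8. Of 33469 promoters in that table, 2.14% hold a match. Of the 4 called members, Mcm3, Mcm4, Mcm6 and Uhrf1, 3 matched the table. Mcm3, Mcm6 and Uhrf1 have 5 promoters there, and 3 of these hold a match, 1 for each gene. Those of Mcm3 (chr9:30733697-30733996, minus strand, matches that start at positions -6 and 14 from the gene's start) and Mcm6 (chr13:42404303-42404602, minus strand, overlapping matches from -139 and -135) are shown because Mcm3 had the lowest p of the list and Mcm6 the next lowest. Capitals mark the matches, and the sequences run 5′ to 3′ on the gene's strand.
Mcm3: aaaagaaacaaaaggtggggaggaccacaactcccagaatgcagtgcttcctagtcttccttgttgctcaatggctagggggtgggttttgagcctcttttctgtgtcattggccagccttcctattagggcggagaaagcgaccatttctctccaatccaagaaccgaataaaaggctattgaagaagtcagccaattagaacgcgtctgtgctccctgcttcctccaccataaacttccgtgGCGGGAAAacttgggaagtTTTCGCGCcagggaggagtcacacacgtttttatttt
Mcm6: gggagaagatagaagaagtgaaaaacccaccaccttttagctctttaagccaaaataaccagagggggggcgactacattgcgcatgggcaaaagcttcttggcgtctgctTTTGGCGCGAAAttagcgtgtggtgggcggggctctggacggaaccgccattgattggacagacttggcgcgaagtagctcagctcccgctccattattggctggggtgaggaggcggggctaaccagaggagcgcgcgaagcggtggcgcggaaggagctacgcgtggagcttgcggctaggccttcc
A match describes the letters in this window, not a site in use.

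A few genes of synapses and excitability passed. Over all genes 1.4% were higher and 2.15% lower, and among 35 measured genes of glutamate receptors and postsynaptic proteins 2 were higher and 1 lower (median log2 fold change 0.04). Grin2c, an NMDA receptor subunit that increases after birth in rodents, had 26.6, 24.9, 24.9, 25.7 and 30.7 CPM in light-treated jj pups, against 11.9, 19.9, 9.85, 11.5 and 11.6 CPM in untreated Nj pups. All light-treated jj pups were above all untreated Nj pups, of which library 2 was the highest. The log2 fold change was 1.03 (SE 0.16, edgeR adjusted p = 0.00278). Grin2a, the NMDA receptor subunit of maturing synapses, averaged 60.2 ± 7.06 CPM in light-treated jj and 46.9 ± 3.86 CPM in untreated Nj pups (log2 fold change 0.36, edgeR adjusted p = 0.0276). Grin3a, a subunit of juvenile receptors, fell by 0.29 (edgeR adjusted p = 0.0194). Of 27 genes of synaptic vesicles and release 2 were higher and 0 lower. Vamp1, a vesicle fusion protein, averaged 30.6 ± 1.69 CPM in light-treated jj and 21.3 ± 3.09 CPM in untreated Nj pups (log2 fold change 0.52, edgeR adjusted p = 0.00278), and the vesicular glutamate transporter Slc17a7 rose by 0.21 (0.0308). Among 31 voltage-gated channel genes 4 were higher and 0 lower. Kcnq3, a subunit of the M-type potassium channel, had 71.1, 70.1, 72.7, 71.4 and 71.9 CPM in light-treated jj, against 57.8, 60.4, 58.9, 63.2 and 61.9 CPM in untreated Nj pups. Its groups were narrow and apart (log2 fold change 0.24, SE 0.04, edgeR adjusted p = 0.00453). The sodium channel subunit Scn2b rose by 0.24 (edgeR adjusted p = 0.0399). With 1 library left out, Scn2b passed in 4 and Grin2a in 5 of 10 fits. None of 18 genes of GABA receptors and chloride transport passed, with a median of 0.08 and a lowest edgeR adjusted p of 0.132.

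Calcium-binding proteins and interneuron genes included the largest rise that passed among all lists. Pvalb, parvalbumin of fast-spiking interneurons, was at 1.1, 1.5, 1.68, 1.49 and 1.41 CPM in light-treated jj pups, against 0.709, 0.627, 0.330, 0.735 and 0.731 CPM in untreated Nj pups. The groups were apart at these low levels, which rest on 28, 31, 33, 29 and 30 counts in light-treated jj and 19, 16, 7, 14 and 17 counts in untreated Nj libraries. Its log2 fold change was 1.18 (SE 0.25, edgeR adjusted p = 0.0124). Vsnl1, a neuronal calcium sensor, averaged 249 ± 34.2 CPM in light-treated jj and 182 ± 17.8 CPM in untreated Nj pups (log2 fold change 0.45, edgeR adjusted p = 0.0225), and passed in 5 of 10 fits with 1 library left out. With S100b, an astrocyte protein (0.31, edgeR adjusted p = 0.0159), these made 3 of 22 calcium-binding genes higher and 0 lower, with a median of 0.16 and 20 of 22 above 0. Over all genes 1.4% were higher and 2.15% lower. Calb1, calbindin of dentate granule neurons, had a log2 fold change of 0.20 and did not pass (edgeR adjusted p = 0.51). Of 21 interneuron genes 2 were higher and 2 lower, beside the same shares of all genes. Sst, the somatostatin gene, averaged 137 ± 9.37 CPM in light-treated jj and 110 ± 9.78 CPM in untreated Nj pups (log2 fold change 0.31, edgeR adjusted p = 0.0139). Nos1, neuronal nitric oxide synthase, fell by 0.19 (edgeR adjusted p = 0.0407), and Reln fell as given above. Nos1 passed in 1 of 10 fits with 1 library left out. Gad1, the gene of an enzyme that makes GABA, averaged 181 ± 13.7 CPM in light-treated jj and 176 ± 11.6 CPM in untreated Nj pups. It did not pass (edgeR adjusted p = 0.797).

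**Figure D3:**
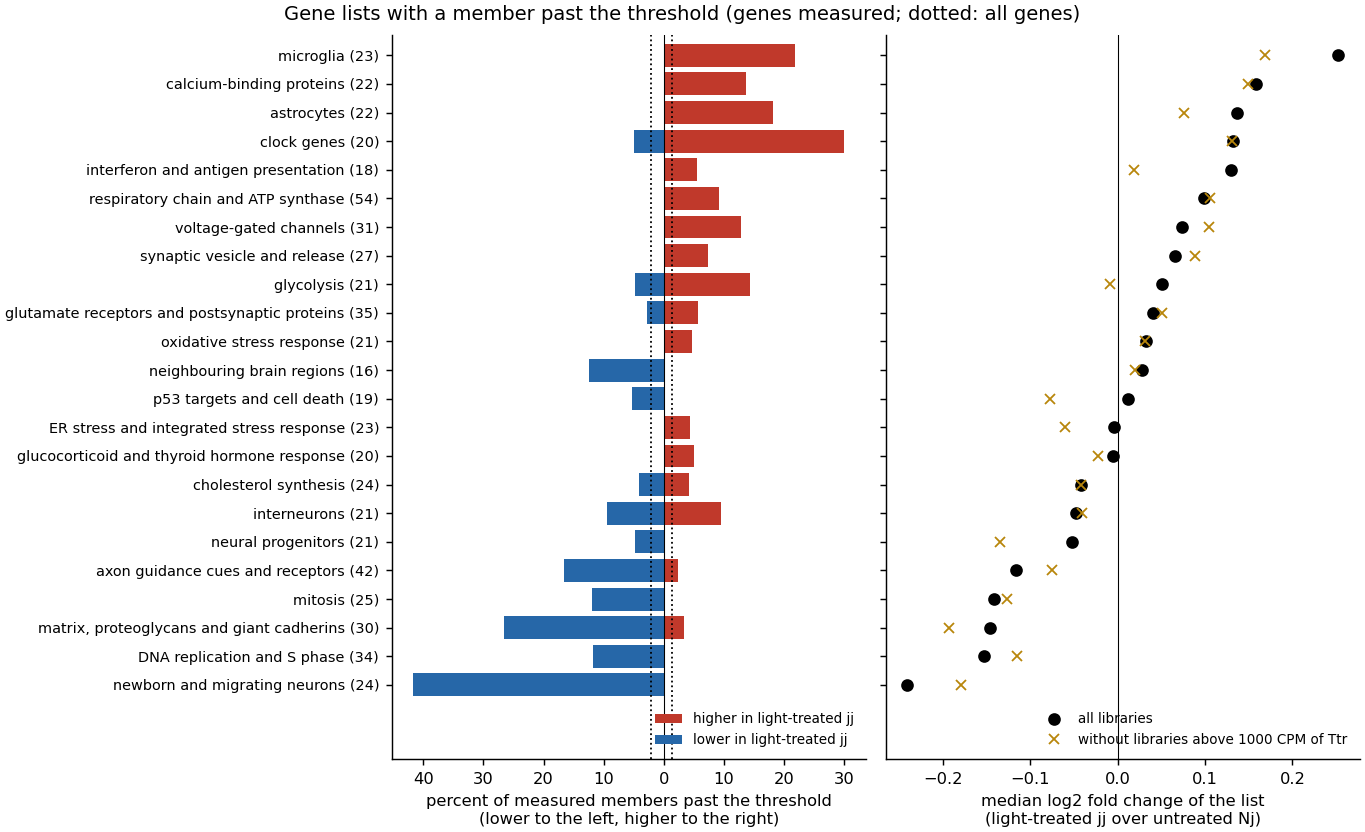
The left panel gives, for each list with a called member, the percent of its measured genes that passed lower (blue, to the left) or higher (red, to the right) in light-treated jj pups, with the shares over all genes, 2.15% and 1.4%, as dotted lines. The right panel gives the median log2 fold change of each list with all libraries (points) and without the Ttr-rich ones (crosses). Newborn neurons lie at the lower end with 10 of 24 genes lower, and microglia at the upper end with a median of 0.25.

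Some glial genes rose. Of 22 measured astrocyte genes 4 were higher and 0 lower, beside 1.4% and 2.15% of all genes, and 16 were above 0 and 6 below. The median log2 fold change was 0.14, which was 0.08 without the Ttr-rich libraries. Slc1a2, the main glutamate transporter of astrocytes, stood at 141, 135, 154, 144 and 155 CPM in light-treated jj pups, against 106, 125, 102, 105 and 105 CPM in untreated Nj pups. All light-treated jj pups were above the highest untreated Nj pup, library 2 (log2 fold change 0.42, SE 0.06, edgeR adjusted p = 0.00228). Ntsr2, a neurotensin receptor of astrocytes, averaged 11.6 ± 1.11 CPM in light-treated jj and 6.52 ± 1.9 CPM in untreated Nj pups (log2 fold change 0.83, edgeR adjusted p = 0.00624). Glul, glutamine synthetase, rose by 0.21 (edgeR adjusted p = 0.019). Gfap, the astrocyte filament that rises on injury, averaged 312 ± 22.4 CPM in light-treated jj and 251 ± 43.1 CPM in untreated Nj pups and did not pass (log2 fold change 0.31, edgeR adjusted p = 0.105). Slc1a3 and Aldh1l1, further astrocyte markers, averaged 831 ± 32.6 and 31.5 ± 4.12 CPM in light-treated jj pups. In untreated Nj pups they averaged 847 ± 32.6 and 35.6 ± 3.17 CPM, and neither passed.

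Of 23 microglia genes 5 were higher and 0 lower, beside 1.4% and 2.15% of all genes. By value 22 were above 0, and the median was 0.25, or 0.17 without the Ttr-rich libraries. C1qb, a complement subunit, had 14.2, 16.7, 14.2, 17.9 and 18.1 CPM in light-treated jj pups, against 11.3, 13.3, 10.4, 12.9 and 12.2 CPM in untreated Nj pups. The groups did not overlap (log2 fold change 0.43, SE 0.09, edgeR adjusted p = 0.0125), but the log2 fold change was 0.19 without the Ttr-rich libraries. Fcrl2, matched to the mouse microglial marker Fcrls, and the lysosomal protease Ctss rose by 0.28 and 0.39 (edgeR adjusted p = 0.0097 and 0.0209). P2ry12, the purine receptor of resting microglia, and Aif1, their actin-binding marker, rose by 0.38 and 0.41 (edgeR adjusted p = 0.0294 and 0.0412). With 1 library left out Ctss, P2ry12 and Aif1 passed in 4, 4 and 3 of 10 fits. Cx3cr1, the fractalkine receptor, averaged 10.6 ± 0.686 CPM in light-treated jj and 8.67 ± 0.907 CPM in untreated Nj pups and did not pass (edgeR adjusted p = 0.0921). Csf1r, another microglial marker, averaged 43.7 ± 2.45 CPM in light-treated jj and 41.9 ± 1.38 CPM in untreated Nj pups and did not pass either. None of 14 myelin genes passed, at a median of 0.27, which was 0.14 without the Ttr-rich libraries. Mbp, a main protein of myelin, had 77.1, 90.8, 84.0, 82.1 and 80.8 CPM in light-treated jj, against 52.5, 86.9, 63.6, 50.2 and 49.6 CPM in untreated Nj pups. Only untreated Nj library 2 reached the light-treated jj range, and the gene did not pass (log2 fold change 0.45, SE 0.15, edgeR adjusted p = 0.109). The lists of oligodendrocyte precursors (10 genes measured, median 0.13), hippocampal subfields (16, 0.04) and endothelium with pericytes (20, -0.01) held 0 called genes. Without the Ttr-rich libraries these 3 medians were 0.04, -0.01 and -0.02. In the list of neighbouring brain regions 2 of 16 were lower, beside 2.15% of all genes. These were the transcription factor genes Lef1 and Fezf2, by 0.30 and 0.31 (edgeR adjusted p = 0.0267 and 0.0298). Each passed in 4 of 10 fits with 1 library left out.

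Clock genes had the highest share of rises among the lists. Of 20 measured genes 6 were higher and 1 lower, beside 1.4% and 2.15% of all genes, and the median log2 fold change was 0.13, with or without the Ttr-rich libraries. The hours of death are not given in the sources used here. Dbp, a clock output factor, had 23.8, 27.1, 26.5, 28.0 and 30.7 CPM in light-treated jj pups, against 21.2, 23.1, 18.2, 18.7 and 17.1 CPM in untreated Nj pups. The lowest light-treated jj pup lay just above the highest untreated Nj pup (log2 fold change 0.47, SE 0.08, edgeR adjusted p = 0.00399). Nr1d2 and Nr1d1, repressors in the clock loop, rose by 0.38 and 0.36 (edgeR adjusted p = 0.01 and 0.0243). Per3, a period gene, rose by 0.38 (edgeR adjusted p = 0.0208), and Tef, a relative of Dbp, by 0.20 (0.0135). Ciart, a circadian repressor, had 3.84, 3.34, 2.60, 3.80 and 3.71 CPM in light-treated jj, against 2.35, 2.39, 2.40, 2.52 and 2.41 CPM in untreated Nj pups, with light-treated jj library 3 closest to the other group (log2 fold change 0.52, SE 0.11, edgeR adjusted p = 0.0131). Csnk1e, a kinase of period proteins, fell by 0.20 (edgeR adjusted p = 0.0348). Arntl, a core activator of the clock, had a log2 fold change of -0.13 and did not pass (edgeR adjusted p = 0.202).

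Clock activators bind the canonical E-box, CACGTG, which 6.42% of the 33469 promoters hold on either strand. Of 8 promoters of the 7 called clock genes, 3 hold it: Ciart has 3 matches, Tef 1 and 1 of the 2 promoters of Nr1d1 has 1. The Ciart promoter (RefSeq GRCr8, chr2:186112197-186112496, minus strand, matches from -93, -35 and -21) is shown because it has the most matches, which are in capitals.
Ciart: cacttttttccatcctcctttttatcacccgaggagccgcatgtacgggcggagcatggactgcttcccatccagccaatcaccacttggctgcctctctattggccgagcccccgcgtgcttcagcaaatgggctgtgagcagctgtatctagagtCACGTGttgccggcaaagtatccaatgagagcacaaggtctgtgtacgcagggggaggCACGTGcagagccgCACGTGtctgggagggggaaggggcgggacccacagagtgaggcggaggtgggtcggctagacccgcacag
The windows of Dbp, Nr1d2, Per3 and Csnk1e do not hold these letters.

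Klf9, a factor induced by glucocorticoids and thyroid hormone, shared the lowest adjusted p of the whole comparison with other genes. It stood at 49.8, 48.5, 57.1, 56.4 and 58.4 CPM in light-treated jj pups, against 37.0, 45.7, 36.1, 39.0 and 38.8 CPM in untreated Nj pups. The groups were apart, with a log2 fold change of 0.46 (SE 0.07, edgeR adjusted p = 0.00188). It was the 1 called gene among 20 of the glucocorticoid and thyroid hormone response (5.0%, beside 3.56% of all genes), whose median was -0.01. Of 20 immediate early genes 0 passed (median -0.01, lowest edgeR adjusted p = 0.0572), and Bdnf, an activity-dependent growth factor, averaged 21.5 ± 1.93 CPM in light-treated jj and 20.7 ± 2.83 CPM in untreated Nj pups.

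Over all genes 1.4% were higher and 2.15% lower. Of 54 measured genes of the respiratory chain and ATP synthase 5 were higher and 0 lower, 53 had a log2 fold change above 0, and the median was 0.10. Genes of 1 pathway in the same libraries are not independent, so the 53 are a description. Cox4i1 and Cox7c, subunits of cytochrome c oxidase, averaged 410 ± 16.4 and 137 ± 4.11 CPM in light-treated jj pups, against 360 ± 23.3 and 119 ± 7.54 CPM in untreated Nj pups (log2 fold changes 0.19 and 0.20, edgeR adjusted p = 0.0182 and 0.0198). Cox6c rose by 0.19, Ndufb9 of complex I by 0.20 and Atp5po of ATP synthase by 0.17 (edgeR adjusted p = 0.0475, 0.0247 and 0.0305). Cox4i1, Cox7c, Ndufb9 and Atp5po passed in 8, 8, 7 and 5 of 10 fits with 1 library left out. In glycolysis 3 of 21 genes were higher and 1 lower. Pfkp, a phosphofructokinase, had 235, 209, 220, 215 and 230 CPM in light-treated jj, against 177, 190, 151, 142 and 166 CPM in untreated Nj pups. Its groups did not overlap (log2 fold change 0.42, SE 0.07, edgeR adjusted p = 0.00228). Ldhb and Pgam1 rose by 0.17 and 0.16 (edgeR adjusted p = 0.0348 and 0.0313), and Hk1, the brain hexokinase, fell by 0.17 (0.0159). With 1 library left out, Ldhb, Pgam1 and Hk1 passed in 4, 4 and 7 of 10 fits. The median of glycolysis genes was 0.05, and -0.01 without the Ttr-rich libraries. In cholesterol synthesis 1 of 24 genes was higher and 1 lower, and the rise was that of Stard4, a sterol carrier (0.25, edgeR adjusted p = 0.0499). Stard4 passed in 2 of 10 fits with 1 library left out. Of 50 ribosomal protein genes 0 passed (median -0.03, lowest edgeR adjusted p = 0.0892).

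Genes that handle bilirubin and heme did not pass in the treated jaundiced pups. Of 26 measured genes 0 were called, the median log2 fold change was 0.03, and the lowest edgeR adjusted p was 0.266. Blvra, biliverdin reductase, which makes bilirubin, had 20.6, 19.5, 19.4, 16.8 and 18.8 CPM in light-treated jj pups, against 18.8, 18.4, 18.8, 17.7 and 17.7 CPM in untreated Nj pups. The groups overlapped (log2 fold change 0.06, SE 0.06, edgeR adjusted p = 0.676). Blvrb, a second reductase, had 19.8, 21.2, 20.1, 19.99 and 19.9 CPM in light-treated jj, against 21.0, 20.6, 19.3, 17.7 and 20.2 CPM in untreated Nj pups (0.03, SE 0.07, edgeR adjusted p = 0.883). Hmox1, the inducible heme oxygenase, averaged 6.91 ± 0.793 CPM in light-treated jj and 7.5 ± 0.853 CPM in untreated Nj pups (log2 fold change -0.12, edgeR adjusted p = 0.631), and Hmox2, the constitutive one, 51.7 ± 1.69 CPM in light-treated jj and 49.4 ± 3.5 CPM in untreated Nj pups (0.07, 0.513). The liver gene mutated in the strain is not analysed here, so the genotype labels were not checked against it.

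Stress, cell death and interferon lists held single called genes, 4.35% to 5.56% of each list, near the 3.56% called over all genes. The oxidative stress list had 1 of 21 higher, Sod2, the mitochondrial superoxide dismutase, at 109 ± 2.77 CPM in light-treated jj and 95.4 ± 6.82 CPM in untreated Nj pups (log2 fold change 0.19, edgeR adjusted p = 0.0318). In the list of endoplasmic reticulum and integrated stress 1 of 23 was higher, Ddit3, the factor CHOP, at 8.51 ± 1.17 CPM in light-treated jj and 6.35 ± 0.579 CPM in untreated Nj pups (0.42, edgeR adjusted p = 0.0314). Among p53 targets and cell death genes 1 of 19 was lower, Bid, a trigger of mitochondrial apoptosis, by 0.23 (edgeR adjusted p = 0.0327). In the interferon list 1 of 18 was higher, B2m, the light chain of class I antigen-presenting molecules, by 0.19 (edgeR adjusted p = 0.0285). With 1 library left out, these 4 passed in 4, 3, 2 and 4 of 10 fits. The lists of inflammation (13 measured, median 0.12) and of heat and cold response (14, -0.02) had 0 called genes, with lowest edgeR adjusted p of 0.279 and 0.0554. Lists of other tissues held 0 called genes as well: meninges 0 of 17 (median -0.25), ependyma 0 of 15 (0.09) and red blood cells 0 of 7 (-0.15). Without the Ttr-rich libraries the medians of these 3 lists were -0.56, -0.12 and -0.28, and those of inflammation and of heat and cold response 0.06 and -0.05.

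The largest changes among genes whose average log2 CPM was 1 or more and with groups that do not overlap add members of no list. Extl1, an enzyme of heparan sulfate synthesis, had 15.4, 14.8, 18, 16.7 and 19.3 CPM in light-treated jj pups, against 10.8, 13.8, 8.01, 9.24 and 8.64 CPM in untreated Nj pups. It was higher in every light-treated jj pup (log2 fold change 0.73, SE 0.13, edgeR adjusted p = 0.00282). Beside Grin2c and Ntsr2, the other large rises were those of Catsperz, a sperm calcium channel subunit (0.86), Col27a1 and Col11a2, fibrillar collagen chains (0.74 and 0.67), Gng13, a G protein subunit (0.74), Fgf2, a growth factor (0.66), Cldn10, a claudin (0.63), and Evi2a (0.62). Col27a1 passed in 1 of 10 fits with 1 library left out and Fgf2 and Evi2a in 4 each, whereas Col11a2 passed in all 10. Among falls, Emilin3, a matrix glycoprotein, had 2.63, 1.69, 1.43, 2.11 and 2.11 CPM in light-treated jj, against 3.21, 3.52, 3.11, 3.52 and 3.40 CPM in untreated Nj pups. All its light-treated jj values were lower (log2 fold change -0.74, SE 0.15, edgeR adjusted p = 0.0109). After Gpc2, Draxin and Adamts7, the remaining falls were Spn, a leukocyte surface protein (-0.58, in 1 of 10 such fits), Gpr139, an orphan receptor (-0.54), Chodl, chondrolectin (-0.53), Hpdl (-0.53), the zinc finger gene Zfp663 (-0.52) and Pcdhgb6 (-0.50). Pcdhgb6 shares its last exons with the other gamma protocadherins, so its count is uncertain.

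The contrasts that split genotype from light share libraries with this comparison, so their values are set side by side without a test between them. Light-treated jj against light-treated Nj pups lies within prefix J18. The other contrasts below also differ in title prefix, so prefix and light, or prefix and genotype, cannot be told apart in them. Untreated jj against untreated Nj pups gave 0 called genes (0.0%), with 972 at an unadjusted p under 0.05 and a lowest edgeR adjusted p of 0.112. DESeq2 was not run on that contrast here. Light-treated jj against light-treated Nj pups also gave 0 (0.0%), with 1011 at an unadjusted p under 0.05 and a lowest edgeR adjusted p of 0.371. Light-treated against untreated Nj pups gave 611 (4.0%), 228 higher and 383 lower. Light-treated against untreated jj pups gave 25 (0.164%), 6 higher and 19 lower. For Gpc2 the log2 fold change was -0.74 in light-treated Nj over untreated Nj and -0.10 in untreated jj over untreated Nj pups, beside -0.72 in light-treated jj. For Tnc these values were -0.48 and -0.03, beside -0.47, and for Klf9 0.45 and 0.16, beside 0.46. Grin2c stood at 0.79 and 0.42, beside 1.03. In other called genes the untreated jj value came close to that of light-treated jj pups: Ddit3 was at 0.47 in light-treated Nj and 0.42 in untreated jj, beside 0.42 in light-treated jj pups. Ciart was at 0.35 and 0.45, beside 0.52, and Chodl at -0.50 and -0.40, beside -0.53. These genes were picked after their values were seen. Zfp663 was at -0.19 in light-treated Nj and -0.01 in untreated jj pups, beside -0.52 in light-treated jj, and Grin3a at -0.05 and -0.03, beside -0.29. The medians of newborn neuron genes were -0.20 in light-treated Nj, -0.09 in untreated jj and -0.24 in light-treated jj pups, each over untreated Nj. Those of microglia genes were 0.15, 0.17 and 0.25, and those of clock genes 0.10, 0.05 and 0.13. Whether the response to light differs with genotype was not tested here.

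**Figure D4:**
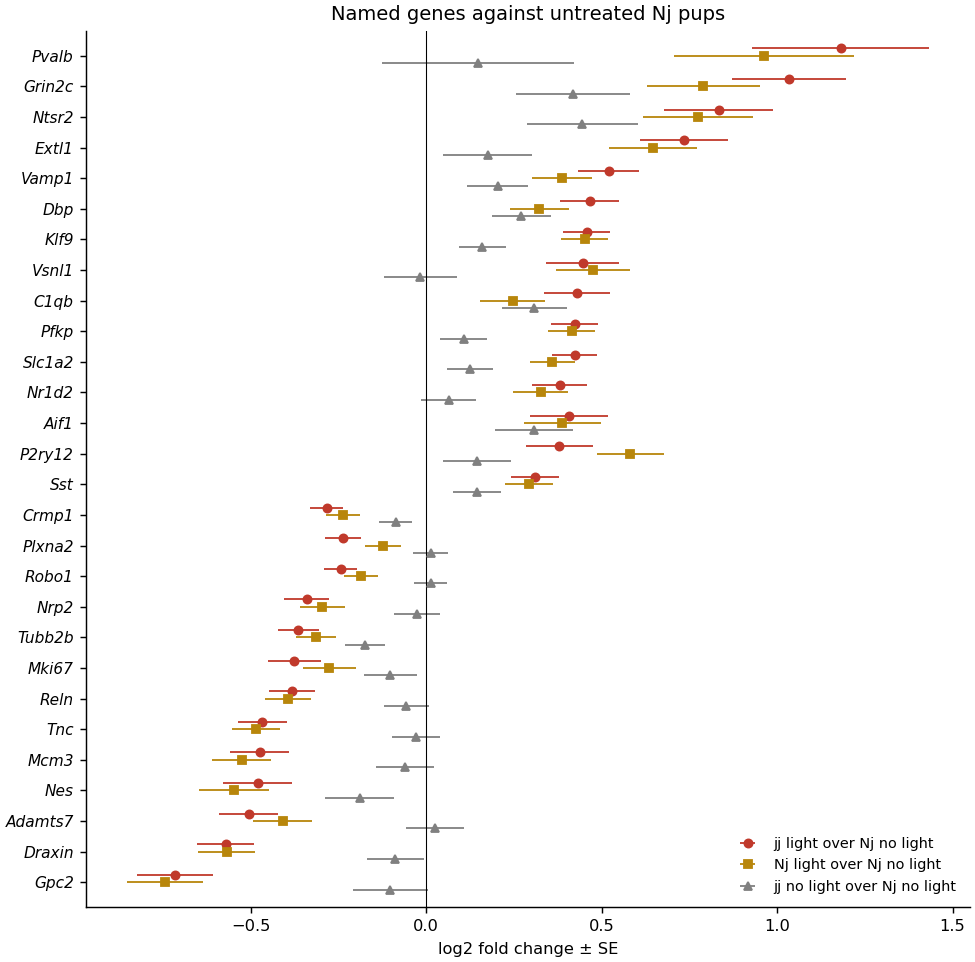
Points are log2 fold changes with their SE for 28 named genes, all over untreated Nj pups: light-treated jj (red circles), light-treated Nj (yellow squares) and untreated jj (grey triangles). The 3 contrasts share the untreated Nj libraries. The grey triangles stay between -0.19 and 0.45, and Gpc2 at the lower end has -0.72, -0.74 and -0.10 for light-treated jj, light-treated Nj and untreated jj pups.

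The count of calls rests on few libraries. With each of the 10 libraries left out in turn it ran from 192 to 678. It fell to 268 and 192 without light-treated jj libraries 2 and 5, and to 348, 195 and 205 without untreated Nj libraries 3, 4 and 5. Of 76 called genes named by rule, 34 passed in all 10 of these fits, among them Gpc2, Draxin, Tubb2b, Tnc, Reln, Mcm3, Grin2c, Slc1a2, Dbp, Klf9 and Pfkp. Without the 7 Ttr-rich libraries of the 4 groups, a choice made after the data were seen, 2 light-treated jj and 4 untreated Nj libraries remained. Then 0 of 15495 genes passed in edgeR, 1863 had an unadjusted p under 0.05, and the lowest adjusted p was 0.0808. The 543 genes had a median absolute log2 fold change of 0.22 in that fit and a median standard error of 0.0717, beside 0.26 and 0.058 with all libraries. With choroid plexus and meninges levels as covariates, also chosen after the data were seen, 242 genes passed, 228 of them among the 543. Gpc2 was at -0.58 without the Ttr-rich libraries and at -0.66 with the covariates, Grin2c at 0.90 and 0.98, and Slc1a2 at 0.42 in both. DESeq2 called 865 genes, 540 of them among the 543.

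**Figure D5:**
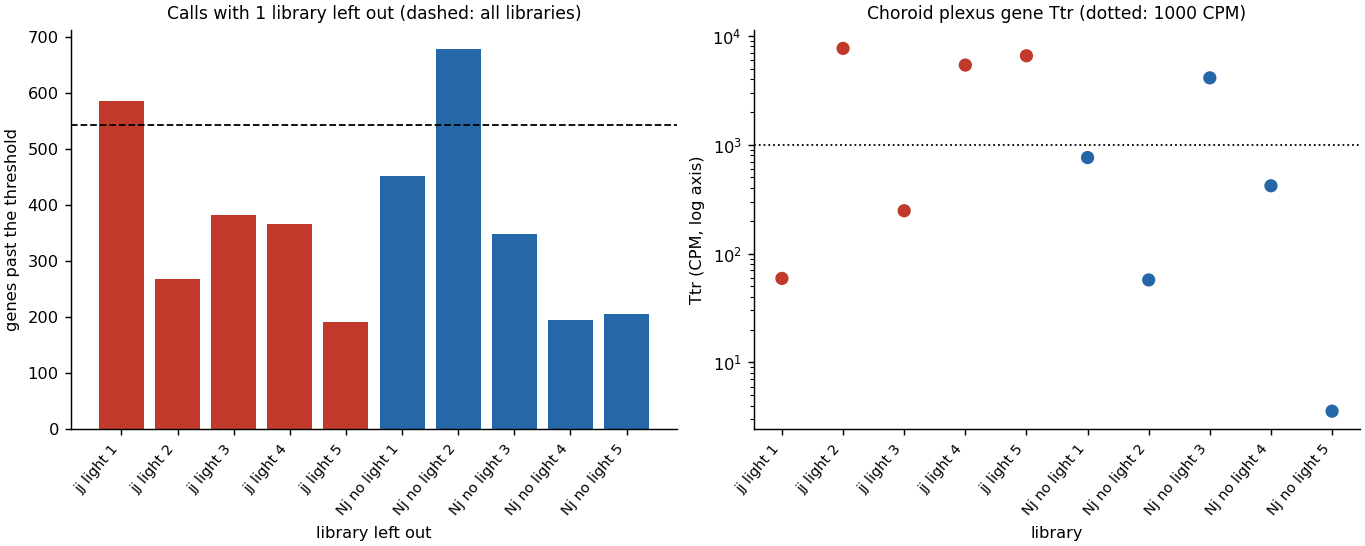
The left panel gives the number of genes past the threshold when the named library is left out, with light-treated jj libraries in red, untreated Nj libraries in blue and the count of 543 with all libraries as a dashed line. The right panel gives Ttr in CPM on a log axis for the same 10 libraries, with 1000 CPM dotted. The lowest counts, 192, 195 and 205, come without light-treated jj 5 and untreated Nj 4 and 5, whose Ttr was 6558, 419 and 3.57 CPM.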

How the data were processed

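PolyA RNA of 20 hippocampi was sequenced, 5 per group. The authors deposited 1 table of raw counts per rat Ensembl gene without normalisation. Per the submitters' processing notes, FastQC, TopHat2 2.0.13, Subread and edgeR were used. The notes name a mouse build while the identifiers are those of rat genes, and the rat build and strand setting are not given in the sources used here. Coordinates are those of RefSeq promoters (GRCr8).

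Counts were tested with edgeR 4.0.16 (limma 3.58.1, R 4.3.3): filterByExpr by group, TMM, 1 robust quasi-likelihood fit of all 20 libraries with a mean per group (legacy estimates), two-sided, Benjamini-Hochberg over 15272 genes at 0.05. CPM use TMM-scaled library sizes, and the distance used log2 CPM with a prior count of 2. The members and gene lists were chosen with earlier results of these data known. Lists are described by counts and medians, without a set test. Of 922 list genes 30 were not matched. Among genes whose average log2 CPM was 1 or more, with a named symbol and ranges that do not overlap, the text names the 10 largest changes in each direction, then up to 4 called genes per list and 12 fixed genes. Further list members, called or not, were named after their values were seen. Alternatives were DESeq2 1.42.0 size factors and test, no filter, a minimum mean count of 10, the newer estimates, the 10 libraries alone, a Y-linked covariate, untreated Nj pups of prefix J15 alone, and each library left out. The fit was tested on simulated data. A few genes chosen this way are not reported here but enter all counts.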

Additional observations from a re-analysis of the deposited data

Results flagged for a closer look

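In 7 of 176 groups of 5 libraries examined, 1 library stood far from the other 4, where chance gives about 1 in 20 groups. In light-treated jj pups these were Aif1, whose highest value was 13.5 CPM with the next at 11.3, Blvrb, whose highest was 21.2 CPM with the next at 20.1, and Fezf2, whose lowest was 47.1 CPM with the next at 51.6. In untreated Nj pups Pvalb had a lowest value of 0.330 CPM with the next at 0.627. Grin2c had a highest value of 19.9 CPM in untreated Nj library 2, with the next at 11.9, and Slc1a2 a highest value of 125 CPM in the same library, with the next at 106. Ttr had a highest value of 4111 CPM in untreated Nj library 3, with the next at 762.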

How the results depend on the processing

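No paired analysis was possible because replicate numbers were given in accession order and link no pups of different groups. With each library left out in turn, calls ran from 192 to 678 in all, from 76 to 349 higher and from 104 to 335 lower, against 543, 214 and 329. DESeq2 called 865 (353 higher, 512 lower), no count filter gave 142 higher, covariates for choroid plexus and meninges 242 (111 and 131), and leaving out libraries above 1000 CPM of Ttr 0 (0 and 0; edgeR, 1863 at an unadjusted p under 0.05). In that last fit fewer libraries enter, and the cause was not tested otherwise. The other planned fits with all libraries of both groups gave 408 to 596 calls, and untreated Nj pups of prefix J15 alone gave 688. The distance between group means ran from 25.6 to 31.6 with libraries left out (exact permutation p 0.0556 to 0.2698). It was 37.5 without a filter (exact permutation p = 0.0873). Without the Ttr-rich libraries it was 28.6 (exact permutation p = 0.6, smallest possible 0.0667). Without choroid plexus, meninges, ependyma, red blood cell and Y-linked genes it was 26.2 (exact permutation p = 0.0635). Blvrb, which did not pass in any fit, turned to -0.0003 without the Ttr-rich libraries and -0.0124 with covariates, and it ran from -0.0032 to 0.0559 with 1 library left out. Library totals of 19.1 to 27.1 M counts limit what low genes such as Pvalb can show.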
